A study of Mus musculus with 6 samples.

Results

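Complement is a cascade of plasma and membrane proteins that tags microbes and dying cells for removal. It can be started by C1q, which binds antibody or exposed surfaces, or by the alternative pathway, in which C3 is activated on a surface and the reaction is amplified by factor B and stabilised by properdin. The fragments C3a and C5a released on the way, called anaphylatoxins, act on receptors of phagocytes. Liver makes most plasma complement, whereas tissue macrophages are a known source of C1q and properdin. The 9 genes described here were taken by name from the 42256 genes counted: the C1q chain genes C1qa, C1qb and C1qc, the component genes C3 and C4b, the alternative pathway genes Cfb (factor B) and Cfp (properdin), and the anaphylatoxin receptor genes C3ar1 and C5ar1.

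The cells were macrophages grown from the bone marrow of adult male mice, on a mixed 129S1/Sv x C57BL/6 background, and their total RNA was sequenced. The groups were CDH11+/+ (wild type, WT, 3 libraries) and CDH11-/- (knockout, KO, 3 libraries), the latter without cadherin-11, a cell adhesion molecule of mesenchymal cells. Marrow cells of both groups grew for 7 days with 20% L929-conditioned medium, the source of the macrophage growth factor CSF1, and 10% FBS, and were untreated. The design text speaks of 4 KO animals, of which 3 libraries were analysed, and the sample labels name no animals, so each p-value reflects only how these libraries vary, which may be technical. Libraries held 27170943 to 37113689 counts. Values are CPM, the counts of a gene per 1000000 counts of its library after TMM scaling, which evens out differences in composition between libraries. Rose and fell are used of KO against WT, for genes whose Benjamini-Hochberg adjusted p in the quasi-likelihood test of edgeR was under 0.05 over 12862 tested genes.

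Cdh11 itself had 6, 11 and 6 counts in WT and 6, 4 and 5 in KO, too few to check the genotype labels. All 10 macrophage markers were present, with Adgre1 (F4/80) at 1556 to 1731 CPM in WT and 1211 to 1641 CPM in KO. Their summed level, most of it Lyz2, was 31770 to 34420 CPM in WT and 20320 to 25990 CPM in KO, 1 gene having risen and 3 having fallen. Among markers of other cells, 10 fibroblast and stromal genes summed to 2.60 to 5.10 CPM in WT and 2.63 to 3.02 CPM in KO, with Dcn and Lum at 0 counts. The hepatocyte genes Alb, Apoa1, Ttr, Serpina1a and Fgb were at 0 counts in all libraries. Of the osteoclast list, 4 of 5 tested genes rose, and of the megakaryocyte list 4 of 5, where 18.5% of all tested genes rose and 16.8% fell. Osteoclast genes summed to 44.0 to 66.2 CPM in WT and 118 to 223 CPM in KO. Megakaryocyte genes summed to 167.5 to 242.7 CPM in WT and 178.1 to 282.2 CPM in KO, with overlap. B cell genes summed to 106 to 131 CPM in WT and 48.8 to 76.8 CPM in KO, with Ighm having fallen, and mast cell genes to 0.723 to 1.09 and 1.82 to 2.99 CPM, with Kit having risen. The part of these 4 lists in the results below was not tested.

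All 9 complement genes passed the filter on low counts, and 1 of them, C5ar1, differed between genotypes. Thus 1 of 9 (higher in KO) was called, where 35.2% of all tested genes were called, 18.5% higher and 16.8% lower in KO. No member was called lower by edgeR, DESeq2 or limma-voom, and none reached an unadjusted p under 0.05 in that direction with edgeR or limma-voom (0 of 9). With DESeq2 3 did, the C1q chains, at adjusted p of 0.0625, 0.0999 and 0.0859 for C1qa, C1qb and C1qc. The CPM of WT and KO did not overlap for 1 of the 9, C5ar1, against 53.4% of all tested genes. The median log2 fold change of the 9 was 0.022, and that of all tested genes 0.0014. In bulk RNA a change in the number of expressing cells and a change in RNA per cell cannot be told apart.

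**Figure D1:**
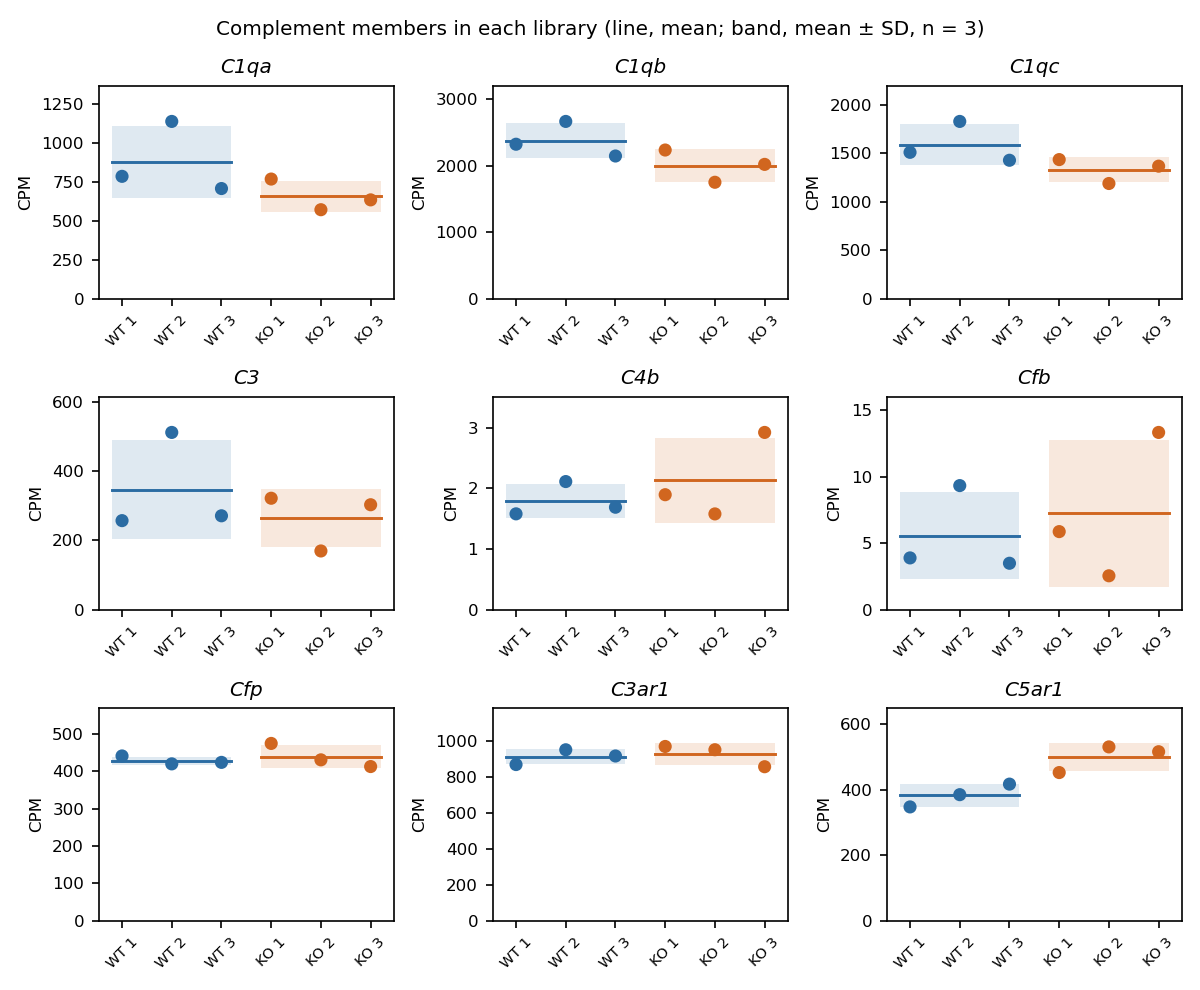
CPM of each complement gene (vertical axis, from 0) in the 3 WT (blue) and 3 KO (orange) libraries, with the mean as a line and the mean ± SD as a band. C5ar1 is the panel in which all KO points, from 452 CPM, lie above all WT points, up to 416 CPM, and Cfb and C3 are the panels with the widest relative spread within WT.

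Mean WT levels ran from 2376 CPM for C1qb to 1.79 CPM for C4b. Divided by the length of merged exons, the WT order was C1qb, C1qa, C1qc, Cfp, C3ar1, C5ar1, C3, Cfb and C4b. In CPM per kb, C1qb stood at 2184 ± 243 in WT and 1839 ± 224 in KO (SD, n = 3 each), and C4b at 0.315 ± 0.0494 and 0.375 ± 0.124. Every neighbour in the WT order had ranges over libraries that did not touch, except C1qa and C1qc, at 679 to 1093 and 739 to 947 CPM per kb. In KO the same pair overlapped with C1qc ahead by mean, and C3ar1 and C5ar1 overlapped too, at 199 to 225 and 176 to 206 CPM per kb. The place of C1qc depends on the length used: with its longest transcript (1203 bases) in place of merged exons (1931 bases), it stood at 1321 CPM per kb in WT and above C1qa in both genotypes. C3, the protein on which all pathways meet, was at 67.5 ± 27.9 CPM per kb in WT and 51.5 ± 16.2 in KO, and thus below C1qa in each genotype without overlap.

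**Figure D2:**
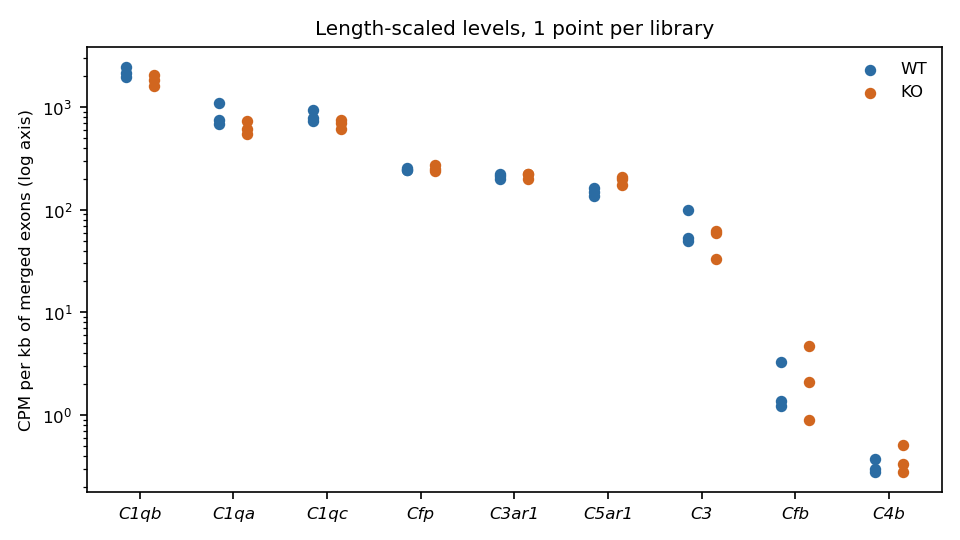
CPM per kb of merged exons on a log axis for each gene, 1 point per library, WT in blue and KO in orange. The C1q genes lie at 548 or above, Cfp and both receptors between 135 and 274, and Cfb and C4b at 4.72 or below.

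The 3 C1q chains join in equal numbers to form C1q, the recognition molecule of the classical pathway. Their genes lie within 18675 bases on chromosome 4 (GRCm38, 136880129 to 136898803), all on the minus strand, in the order C1qb, C1qc, C1qa by coordinate. C1qa (ENSMUSG00000036887) measured 785, 1137 and 706 CPM in WT and 767, 570 and 633 CPM in KO. WT 2 was the highest and KO 2 the lowest library, while KO 1 lay between WT 1 and WT 3. C1qb (ENSMUSG00000036905) measured 2321, 2664 and 2144 CPM in WT and 2234, 1749 and 2018 CPM in KO. C1qc (ENSMUSG00000036896) measured 1510, 1829 and 1428 CPM in WT and 1435, 1188 and 1367 CPM in KO. For each chain the genotypes overlapped by 1 library only, KO 1, which lay above WT 3.

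None of the chains passed the test. The log2 fold changes of C1qa, C1qb and C1qc were -0.41 (95% interval -0.89 to 0.06), -0.25 (-0.52 to 0.03) and -0.26 (-0.53 to 0.01). Their edgeR adjusted p were 0.146, 0.134 and 0.118, and the two-sided exact permutation test gave p = 0.2 for each, where 0.1 is the smallest value that 3 against 3 libraries allow. As folds, the intervals ran from 0.539 to 1.04 for C1qa, 0.696 to 1.02 for C1qb and 0.694 to 1.01 for C1qc. For each chain WT 2 was the highest WT and KO 2 the lowest KO library. Leaving them out was therefore bound to shrink the difference. Without WT 2 the log2 fold changes were -0.19, -0.16 and -0.15, and without both WT 2 and KO 2 they were -0.09, -0.07 and -0.07. Leaving out a library at the opposite end enlarged them. They were -0.54, -0.34 and -0.32 without KO 1, and -0.55, -0.32 and -0.33 without WT 3. By comparison, in a list of 9 genes of resident-type macrophages 6 of 8 tested genes fell and 1 rose, where 16.8% of all tested genes fell and 18.5% rose.

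The ratios between chains within a library varied less than C1qa itself, which was the most variable chain. Its coefficient of variation in WT was 26.2%, against 11.1% for C1qb and 13.3% for C1qc. C1qb exceeded C1qa 2.96-, 2.34- and 3.04-fold in WT and 2.91-, 3.07- and 3.19-fold in KO by CPM; lengths of 1088 and 1040 bases bring these to 2.24- to 3.05-fold per kb. C1qc exceeded C1qa 1.93-, 1.61- and 2.02-fold in WT and 1.87-, 2.08- and 2.16-fold in KO by CPM. Per kb of merged exons this ratio was only 0.867 to 1.16, and with the longest transcripts 1.39 to 1.87. Whether C1qc exceeded C1qa thus depends on the length used. WT 2 had the lowest value of both ratios. The genotypes overlapped in both ratios, and two-sided exact permutation tests of the log2 ratios gave p = 0.4 for C1qb over C1qa and 0.3 for C1qc over C1qa. No run of 50 bases was shared between transcripts of any pair of the chains.

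RefSeq promoter windows (GRCm38.p6, 250 bases before to 50 after the start) were found for 6 of the 9 genes, namely C1qb, C1qc, C3, Cfp, C3ar1 and C5ar1. For C1qc, C3ar1 and C5ar1 the GENCODE gene reaches further, to 136893065, 122856161 and 16259540. Part of the bases before their RefSeq start thus lies inside the gene by that annotation. The bases before the start are shown for C1qb and C1qc because their RNA levels varied together across the libraries. Each is on the minus strand and printed 5′ to 3′, at chr4:136886201-136886450 and chr4:136892915-136893164, and capitals mark the ETS core GAGGAA, the letters at the centre of sites for PU.1, a factor of macrophage development, on either strand.
C1qb: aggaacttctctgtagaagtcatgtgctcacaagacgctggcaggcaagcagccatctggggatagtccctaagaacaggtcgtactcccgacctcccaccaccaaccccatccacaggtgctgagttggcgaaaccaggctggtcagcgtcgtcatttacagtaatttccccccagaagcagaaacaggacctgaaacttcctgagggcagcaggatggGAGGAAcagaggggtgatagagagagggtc
C1qc: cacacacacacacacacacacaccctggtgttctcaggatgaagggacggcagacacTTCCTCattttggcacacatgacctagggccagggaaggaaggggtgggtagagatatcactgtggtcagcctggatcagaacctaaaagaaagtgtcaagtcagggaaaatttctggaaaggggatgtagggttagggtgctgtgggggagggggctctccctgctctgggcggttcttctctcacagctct
The ETS core begins at position -30 from the start of C1qb, and its reverse complement at -193 from that of C1qc. A match is common: 28.3% of 32851 mouse windows hold one. Cfp has 2 matches, both just after its start, and C3, C3ar1 and C5ar1 have none. The interferon-stimulated response element core TTTCNNTTTC, the gamma-activated core TTCNNNGAA and the kappa B core GGGANNTTCC, searched on both strands, occur in 3.44%, 8.30% and 1.47% of windows and in none of the 6.

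C3 (ENSMUSG00000024164, chromosome 17, 57203970 to 57228136, minus strand), the central component cleaved by every pathway, varied widely between libraries of a genotype and was not called. It measured 257, 513 and 271 CPM in WT and 322, 170 and 303 CPM in KO. WT 2 was the highest and KO 2 the lowest, and the other 4 libraries lay between 257 and 322 CPM, with KO 1 and KO 3 above WT 1 and WT 3. The log2 fold change was -0.39 (SE 0.35, interval -1.23 to 0.46; edgeR adjusted p = 0.417). Without WT 2 it was -0.00050, and without WT 2 and KO 2 together the direction turned, at 0.24 (edgeR adjusted p = 0.087). Without WT 1, WT 3, KO 1 or KO 3 it was larger in size, at -0.57, -0.54, -0.55 and -0.50. The coefficient of variation of C3 was 41.4% in WT and 31.4% in KO, where the median of all tested genes was 6.83% and 8.82%.

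The C3 window is shown because C3 is the member with the second highest spread within WT. It lies at chr17:57228137-57228386 on the minus strand, and capitals mark its 1 upstream match, TTGCGAAA, to the C/EBP core TTGCNNAA, a family of factors of inflammatory and acute-phase genes.
C3: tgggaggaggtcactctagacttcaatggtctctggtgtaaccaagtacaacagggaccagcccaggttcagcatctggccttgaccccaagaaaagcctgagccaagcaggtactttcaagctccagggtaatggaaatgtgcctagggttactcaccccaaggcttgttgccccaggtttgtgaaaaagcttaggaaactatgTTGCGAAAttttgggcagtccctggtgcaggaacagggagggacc
The match begins at position -45 from the start, 10.8% of all windows hold this core on either strand, and the other 5 genes with a window have none. The letters TATAAA, held by 13.6% of windows, occur 15 bases after the start of C3 and at position -235 from that of C3ar1.

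WT 2 and KO 2 also stood at the ends of a list of 12 type I interferon-stimulated genes. Their summed level was 971, 2203 and 808 CPM in WT and 753, 500 and 637 CPM in KO. WT 2 was the highest library for 12 of these 12 genes and for 4 of the 9 complement genes, C1qa, C1qb, C1qc and C3. KO 2 was the lowest library for 11 of the 12 and for 6 of the 9 complement genes, the same 4 with C4b and Cfb. For C4b this was by a narrow margin, 1.579 CPM against 1.58 in WT 1. How often all tested genes had these libraries at their ends was not determined, so these counts cannot be set apart from general traits of the libraries. Of the 12 interferon-stimulated genes 4 fell, where 16.8% of all tested genes did. In C3, KO 1 and KO 3 lay above WT 1 and WT 3, whereas in the summed list they lay below. The part of this list in the C1q and C3 values was not tested.

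**Figure D3:**
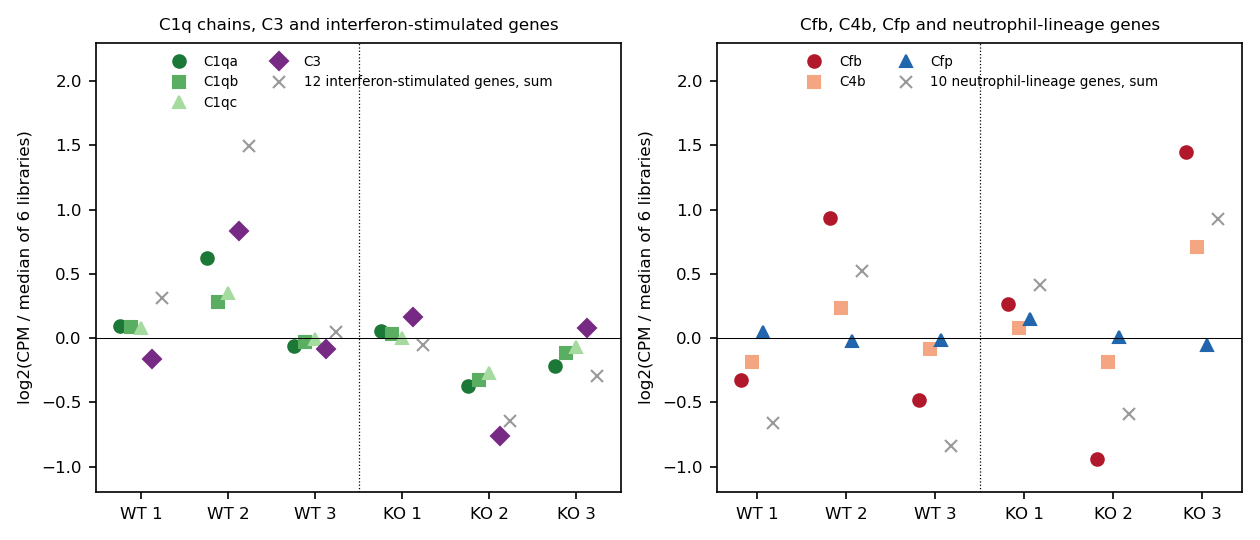
Each point is the CPM of a gene, or the summed CPM of a list (crosses), in 1 library as log2 of its ratio to the median of the 6 libraries. On the left the C1q genes, C3 and the interferon-stimulated genes are highest in WT 2 and lowest in KO 2; on the right Cfb and the neutrophil-lineage genes are both above their medians in WT 2, KO 1 and KO 3.

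The alternative pathway genes behaved unlike each other. Cfp (ENSMUSG00000001128, X chromosome, 20925454 to 20931555, minus strand), which encodes properdin, the stabiliser of the C3-cleaving enzyme, was steady. It measured 441, 420 and 424 CPM in WT and 475, 431 and 413 CPM in KO, and KO libraries lay both above and below all WT libraries. The log2 fold change of 0.037 had an interval of -0.13 to 0.20 (edgeR adjusted p = 0.703), that is 0.916- to 1.15-fold. Its coefficient of variation in WT, 2.64%, was the lowest of the 9 genes. In KO it was 7.26%, above the 6.54% of C3ar1.

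Cfb (ENSMUSG00000090231, chromosome 17, 34856374 to 34862518, minus strand) encodes factor B, the protease of that enzyme, and was low and spread. It measured 3.88, 9.32 and 3.48 CPM in WT and 5.86, 2.54 and 13.3 CPM in KO, from 74 to 401 counts. KO held both the lowest and the highest library. Its log2 fold change was 0.39 with an interval of -1.18 to 1.97 (edgeR adjusted p = 0.663), so changes of 2-fold in either direction are within it. Without KO 3 the sign turned, at -0.40, and without WT 2 the value was 0.97. Cfb shares 2246 exon bases with the protein-coding gene Gm20547 on the same strand, which has 0 counts in all libraries, so how reads of these bases were counted is unknown.

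The 3 libraries highest in Cfb were WT 2, KO 1 and KO 3, which were also the 3 highest in C3 and in C4b. The same 3 were the highest for 8 of 10 genes of neutrophils and their precursors, the exceptions being Mpo and Elane. The share of all tested genes with these 3 libraries highest was not determined. This count therefore cannot be set apart from general traits of the libraries. Summed over these 10 genes the level was 38.9, 88.1 and 34.3 CPM in WT and 81.7, 40.8 and 117 CPM in KO. Ngp, a granule protein, measured 9.67, 22.0 and 8.79 CPM in WT and 22.6, 8.82 and 30.3 CPM in KO. Of the 9 tested genes of the list 0 were called by edgeR, DESeq2 or limma-voom, and 1 was higher in KO at an unadjusted p under 0.05 in each. The part of these transcripts in the Cfb, C3 and C4b values was not tested.

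C4b (ENSMUSG00000073418, chromosome 17, 34728380 to 34743882, minus strand), the classical pathway component downstream of C1q, lies 112492 bases from Cfb. It was close to the low end, with 46 to 88 counts per library, or 1.58, 2.11 and 1.69 CPM in WT and 1.90, 1.58 and 2.92 CPM in KO. KO 3 was the highest library and the others overlapped. Its log2 fold change was 0.26 (interval -0.38 to 0.89; edgeR adjusted p = 0.486), and -0.046 without KO 3. Of all runs of 50 bases in C4b transcripts, 34.6% occur also in those of its paralog C4a, so reads could be divided between them. C4a, at 1.10 to 1.58 CPM in WT and 1.59 to 1.65 CPM in KO, did not overlap between genotypes but was not called (edgeR adjusted p = 0.371).

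The anaphylatoxin receptors, G protein-coupled receptors of phagocytes, were abundant, and C5ar1 was called whereas C3ar1 was not. C3ar1 (ENSMUSG00000040552, chromosome 6, 122847138 to 122856161, minus strand) binds C3a. It measured 868, 950 and 915 CPM in WT and 969, 950 and 856 CPM in KO, and the KO range enclosed the WT range. KO differed from WT by a log2 fold change of 0.022 (interval -0.15 to 0.20; edgeR adjusted p = 0.841), that is 0.900- to 1.15-fold.

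C5ar1 (ENSMUSG00000049130, chromosome 7, 16246743 to 16259540, minus strand), the main receptor of C5a, rose. It measured 347, 384 and 416 CPM in WT and 452, 530 and 515 CPM in KO, or 382 ± 34.8 against 499 ± 41.6 CPM. All KO libraries lay above all WT libraries, and the smallest gap was that between WT 3 and KO 1. This was a log2 fold change of 0.38 (SE 0.092), a rise of 1.30-fold (interval 1.12 to 1.51), with an edgeR adjusted p of 0.0184. The exact permutation test gave 0.1, the smallest value it can give here. C5ar1 no longer passed when WT 1, WT 2, KO 2 or KO 3 was left out (edgeR adjusted p of 0.0702, 0.0561, 0.0531 and 0.0672), without WT 2 and KO 2 together (0.111), and in limma on the deposited normalized signal (0.0629). The log2 fold change stayed between 0.32 and 0.45 in all 15 alternatives.

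Its window, shown because C5ar1 is the member that rose, lies at chr7:16259339-16259588 on the minus strand and holds none of the 6 motifs, hence no capitals. The bases up to 16259540 lie inside the gene as placed above, so the lack of motifs does not describe only upstream sequence.
C5ar1: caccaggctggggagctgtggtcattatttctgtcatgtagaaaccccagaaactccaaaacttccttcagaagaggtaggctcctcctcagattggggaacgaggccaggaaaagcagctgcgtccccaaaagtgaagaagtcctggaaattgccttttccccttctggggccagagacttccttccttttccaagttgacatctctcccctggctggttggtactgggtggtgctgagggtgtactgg
The ratio of C5ar1 to C3ar1 gives the contrast between the receptors within each library. It was 0.400, 0.405 and 0.455 in WT and 0.467, 0.558 and 0.602 in KO by CPM. The ratios of the genotypes did not overlap, with a mean difference of 0.36 on the log2 scale (two-sided exact permutation test, p = 0.1, the smallest possible). C5ar2, the second C5a receptor, which does not signal through G proteins, rose as well. It measured 19.0, 21.5 and 21.1 CPM in WT and 27.9, 33.2 and 35.2 CPM in KO, a log2 fold change of 0.65 (SE 0.10; edgeR adjusted p = 0.00637), a call kept in all 15 alternatives.

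Genes of like pattern were ranked by Pearson's r of log2 CPM over the 6 libraries among 10284 genes, as a description. Nearest to C1qa were Fgl2, Mx1, Usp12 and Zbp1, with r of 0.996, 0.995, 0.994 and 0.993. Mx1, an antiviral GTPase, measured 28.2, 74.9 and 20.9 CPM in WT and 21.9, 10.2 and 14.5 CPM in KO. C1qc ranked 29 (r = 0.978), C1qb 87 (r = 0.961) and C3 509 (r = 0.884). Nearest to C3 were Pced1a, Tent5c, Rufy3 and Myl12b (r from 0.980 to 0.993), and C1qc, at 69, was the nearest member. Nearest to C5ar1 were Shq1, Myof, Lipt2 and Slc12a4 (r from 0.996 to 0.999). C3ar1 ranked 4823 there with r = 0.130, and the C1q genes had r of -0.71 to -0.80.

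The rest of the pathway was read from 42 other complement genes reported here, of which 15 passed the filter and 6 rose, where 18.5% of all tested genes did. Over these 15 the median log2 fold change was 0.25. Of 15 initiators and proteases, 5 were tested and 0 called by edgeR or limma-voom; in edgeR 1 was higher and 1 lower at an unadjusted p under 0.05. C1ra was called higher in DESeq2, with upper-quartile scaling and without KO 1, and Fcna lower without KO 3. Differences between the role groups were not tested. Of 7 genes for C5 and the terminal components, only C8g was tested and it was not called, with 0 at an unadjusted p under 0.05 and 0 in DESeq2 and limma-voom.

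Among regulators, which protect host cells from complement, 3 of the 5 tested genes reported here rose (18.5% of all tested genes), too few genes to describe regulators as a group. Cd59a, a membrane inhibitor of the terminal complex, rose from 2.92, 2.57 and 3.86 CPM to 6.35, 6.25 and 5.78 CPM, or 1.97-fold (edgeR adjusted p = 0.00805). Of the low genes, Cd55, which dissociates C3-cleaving enzymes, rose from 5 to 11 counts in WT to 12 to 34 counts in KO. Clu, clusterin, an inhibitor of the terminal complex, rose from 3 to 5 counts in WT to 14 to 42 counts in KO. Cd55 lost its call without WT 1, WT 2, WT 3 or KO 2, and Clu without WT 1 or WT 2. Without WT 2 and KO 2 together Cd59a, Cd55 and Clu all lost theirs (edgeR adjusted p = 0.0518, 0.149 and 0.0727). Cr1l (Crry), a membrane inhibitor of C3 activation in rodents, measured 67.7 to 69.4 CPM in WT and 71.1 to 76.1 CPM in KO, and was not called.

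Of 6 other receptor genes 4 were tested and 3 rose (18.5% of all tested genes), namely C5ar2 and the integrin chain genes Itgax and Itgb2. Itgax and Itgb2 encode complement receptor 4, and Itgb2 with Itgam encodes complement receptor 3, both of which bind C3 fragments. Itgax measured 34.0, 61.4 and 60.2 CPM in WT and 98.8, 243 and 186 CPM in KO, and Itgb2 521, 587 and 620 CPM in WT and 672, 983 and 911 CPM in KO. Itgam, at 951 to 1097 CPM in WT and 824 to 1091 CPM in KO, was not called (log2 fold change -0.14). Their log2 fold changes were 1.76 and 0.57 (edgeR adjusted p = 0.0165 and 0.0243). Itgax lost its call without the filter on low counts (0.0771) and without WT 1, KO 2 or KO 3, and Itgb2 without WT 1, WT 2, KO 2 or KO 3. Without WT 2 and KO 2 together both lost it (edgeR adjusted p = 0.0618 and 0.134).

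**Figure D4:**
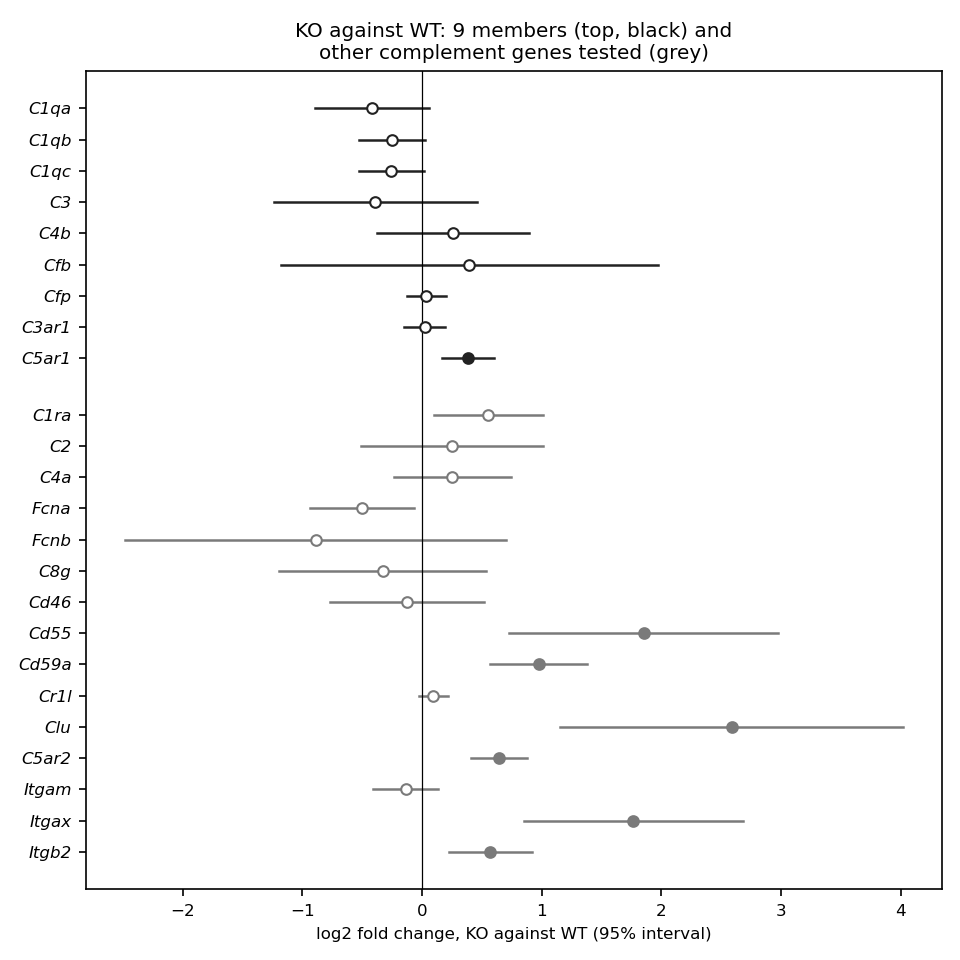
Log2 fold changes of KO against WT with 95% intervals from edgeR for the 9 complement genes (black) and 15 tested other complement genes (grey); filled points passed the adjusted p threshold of 0.05. C5ar1 is the 1 filled black point, the 6 filled grey points lie right of 0, and Cfb has the widest black interval, from -1.18 to 1.97.

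Several parts of the cascade were not detected beside the abundant C1q. Of the 42 genes 12 had 0 counts in all 6 libraries, among them Cfd (factor D, which cleaves factor B), Cfi (factor I, which inactivates C3b), Hc (C5), C6, C7 and C8b. A count of 0 allows up to 3 counts, or 0.0804 to 0.113 CPM depending on the library. Of the proteases that C1q carries, C1ra measured 3.21 to 4.41 CPM in WT and 4.63 to 6.97 CPM in KO (log2 fold change 0.55; edgeR adjusted p = 0.0611), without overlap. C1s1, the gene of the partner protease, had 1 count over all 6 libraries. Fcna, ficolin A, a starter of the lectin pathway, measured 5.69 to 7.13 CPM in WT and 3.90 to 5.75 CPM in KO and was not called (edgeR adjusted p = 0.0709).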

How the data were processed

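Counts per gene of 6 directional RNA-seq libraries were used as the authors deposited them, as whole numbers for Ensembl genes. The submitters' processing notes name mm10, DRAGEN and DESeq2, with no version or role; annotation, strand setting and counting rule were not given in the sources used here. The authors also deposited a normalized signal, whose divisor of the counts varies with the gene within a library (over 1% from the library median for 56.9 to 72.0% of tested genes). It served as an alternative only. All 42256 identifiers matched a symbol of GENCODE M21 (GRCm38), the source of coordinates and lengths; promoters are from RefSeq (GRCm38.p6).

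Genotypes came from the labels, and replicates were numbered in sample order. Genes were kept by filterByExpr (minimum count 10), scaled by TMM and tested across all genes by edgeR 4.0.16, robust quasi-likelihood F test (R 4.3.3), KO against WT, two-sided. Standard errors of edgeR were derived as the size of the log2 fold change divided by the square root of F. Intervals are 95% and use these standard errors with the degrees of freedom of the test. No replicate pair was as alike as copies of 1 library would be (chi-square over degrees of freedom 12.6 to 52.5). Alternatives used DESeq2 1.42.0, limma 3.58.1 (voom, and log2 of the signal plus 1), other scalings and filters, and fewer libraries. One listed gene is not reported here and enters no list count. The members and lists were chosen with earlier results of these data known. Named were all members; of the other complement genes those called and the 4 most abundant of those not called, with C4a, C8g, C1s1 and the undetected genes named after their values were seen; and the 4 genes nearest in pattern to C1qa, C3 and C5ar1, if their mean log2 CPM was 1 or more.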

Additional observations from a re-analysis of the deposited data

How the results depend on the processing

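Leaving out 1 library in turn, the number of members called higher in KO ran from 0 to 1, that of other complement genes called higher from 2 to 7, and lower from 0 to 1 (Fcna without KO 3). Without WT 2 and KO 2 together these numbers were 0, 1 and 0, and limma on the deposited signal called 0 members. Without 1 library the log2 fold changes of C3ar1 ran from -0.015 to 0.070, of Cfp from -0.024 to 0.075, of C4b from -0.046 to 0.43 and of Cfb from -0.40 to 0.97, so their signs were not fixed. Without WT 2 and KO 2 together that of C3 was 0.24. The cause was not tested, and fewer libraries also lower the power. In DESeq2, limma-voom, 3 other scalings and 2 other filters, C5ar1 kept its call and no other member gained one. The stricter filter removed Cd55 and Clu from the test. With 46 to 88 counts, C4b is the member most limited by depth. No paired analysis was possible because the labels give no replicate number that WT and KO libraries share.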
